A study of Mus musculus with 11 samples.

Results

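The interferon-stimulated genes followed here are 37 genes that code for sensors of nucleic acid, transcription factors, the ISG15 system, antiviral effectors, interferon-inducible GTPases, chemokines and antigen processing. They were taken as a list of known interferon targets and matched by symbol to an Affymetrix mouse 430 2.0 array, where a gene was represented by its brightest probe set among those annotated to that gene alone. By this rule 35 of the 37 were measured, out of 18193 genes in all, 20 of them by 1 probe set and 15 by more. Isg15 was measured only by a probe set shared with Gm9706, and Ifi44 had no matched probe set, so neither is among the 35. The arrays held colon RNA of adult C57BL/6 mice, with 3 control arrays taken before imatinib, 4 arrays from 3 h and 4 arrays from 12 h after imatinib. Imatinib is a tyrosine kinase inhibitor with Abl kinases among its targets, and the series title concerns EphB and Abl signalling in intestinal tumours. No transgene or mutation is named for any group. The labels give no dose and no route, and vehicle-treated mice or controls of matched hour were not analysed here, so drug, handling and hour of harvest cannot be told apart. The labels do not say that replicates came from separate mice, and p-values therefore measure the spread between these samples, which may be technical.

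Interferons are cytokines, and cells release those of type I and type III when they sense viral or bacterial nucleic acid. Type I and type III interferons act through a transcription factor complex that includes Stat2 and Irf9 and binds the interferon-stimulated response element, and type II interferon (interferon gamma) acts at gamma-activated sites. In the intestine, type III interferon acts mainly on epithelial cells. In whole colon RNA, a change in the number of cells that carry a transcript and a change in RNA per cell cannot be told apart.

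RefSeq promoter windows of the mouse build GRCm38.p6 were matched for 26 of the 35 measured genes. The stretches below show the start of 5 genes that were far above every other array on the 12 h array described next (Gbp2, Igtp, Irgm1, Cxcl9 and Psmb8) and of Rsad2, which was not. Each runs 5′ to 3′ on the strand of the gene over 80 bases before the start, in lower case, and the first 10 transcribed bases, in capitals. No motif was searched in them.
Gbp2: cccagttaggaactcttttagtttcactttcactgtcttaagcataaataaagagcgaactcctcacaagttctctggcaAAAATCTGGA
Igtp: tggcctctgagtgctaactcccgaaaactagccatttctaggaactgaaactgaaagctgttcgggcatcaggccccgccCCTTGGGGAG
Irgm1: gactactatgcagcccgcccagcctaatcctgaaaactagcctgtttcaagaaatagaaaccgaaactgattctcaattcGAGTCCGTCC
Cxcl9: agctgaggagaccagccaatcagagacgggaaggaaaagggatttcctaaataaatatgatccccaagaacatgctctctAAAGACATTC
Psmb8: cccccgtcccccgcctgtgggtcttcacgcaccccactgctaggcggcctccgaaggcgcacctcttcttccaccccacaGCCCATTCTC
Rsad2: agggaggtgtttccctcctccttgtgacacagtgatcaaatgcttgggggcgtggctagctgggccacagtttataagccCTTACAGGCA
They lie at chr3:142620583-142620672 (plus strand) for Gbp2, chr11:58199476-58199565 (plus strand) for Igtp and chr11:48871411-48871500 (minus strand) for Irgm1. Those of Cxcl9, Psmb8 and Rsad2 lie at chr5:92328070-92328159 (minus strand), chr17:34198115-34198204 (plus strand) and chr12:26456443-26456532 (minus strand).

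The antigen processing genes Tap1 and Psmb9 share a promoter region, since they are transcribed away from each other with starts 226 bases apart. The 225 bases between the starts, chr17:34187331-34187555 (plus strand), are shown on the strand of Tap1 because both genes were high together on that array.
Tap1: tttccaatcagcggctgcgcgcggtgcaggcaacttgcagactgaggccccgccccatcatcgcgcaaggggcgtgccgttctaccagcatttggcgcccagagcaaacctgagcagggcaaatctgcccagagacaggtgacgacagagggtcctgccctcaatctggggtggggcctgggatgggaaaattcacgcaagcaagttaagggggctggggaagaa

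Signals were compared on the scale log2(signal + 16), where a difference understates the change of dim genes. The median signal of an array was 16.8 to 23.9, and 31 of the 35 genes had a mean level above that of a signal of 32. The 10 colon epithelium markers were present on all arrays, with a summed signal of 44160 to 53040 on control arrays, 40280 to 50610 on 3 h arrays and 38970 to 55400 on 12 h arrays. An array that stood apart was 12 h replicate 1. It was the highest of the 11 arrays for 33 of the 35 interferon-stimulated genes, where it was the highest for 11.2% of all genes tested. The exceptions were Mx2 and Rsad2, highest on 3 h replicates 1 and 2, and for Rsad2 this held for 1 of its 3 probe sets. The mean log2 level of the 35 genes was 6.55, 7.09 and 7.41 on the control arrays, 6.96, 7.25, 7.03 and 6.84 at 3 h, and 8.66, 7.0, 7.14 and 6.96 at 12 h, while that of all genes stayed between 6.37 and 6.43. The other 3 arrays at 12 h thus lay within the range of the controls. Changes at 12 h are given below with and without 12 h replicate 1. That array was singled out after values were seen, so p-values of the fit without it describe how results depend on it.

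**Figure D1:**
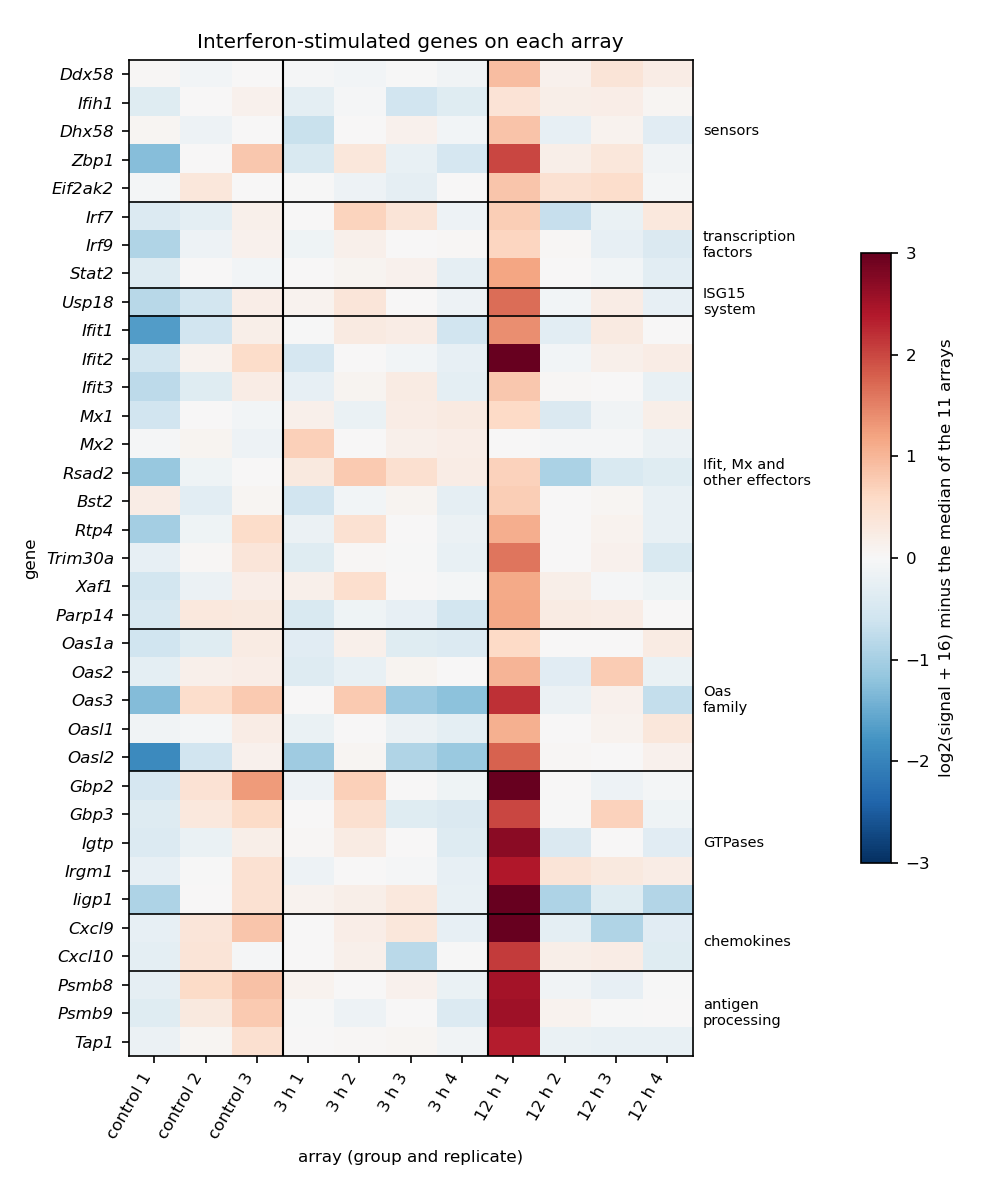
Heat map of the 35 measured interferon-stimulated genes (rows, by role) on the 11 arrays (columns), coloured by log2(signal + 16) minus the gene's median over the arrays, with colours saturating at 3 in either direction. The column of 12 h replicate 1 is the highest for 33 of 35 genes, and that of control replicate 1 the lowest for 17 of 35.

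Control replicate 1 lay at the other end. It was the lowest control for 31 of the 35 genes, against 30.0% of all genes, and the lowest of all 11 arrays for 17 of 35, against 9.27% of all genes. Control replicate 3 was the highest control for 26 of 35 genes. The median SD of the log2 level between replicates was 0.43 in controls, 0.25 at 3 h and 0.70 at 12 h for the interferon-stimulated genes, against 0.17, 0.16 and 0.19 for all genes. Without 12 h replicate 1 the 12 h value was 0.17, and 0.17 for all genes. Of these genes 32, 28 and 33 of 35 varied more than the median gene in controls, at 3 h and at 12 h, and 18 of 35 did so at 12 h without that array.

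No interferon-stimulated gene passed the test in any comparison of the groups. At 3 h against control, 0 of the 35 were called higher and 0 lower by limma at an adjusted p under 0.05, where 2.54% of all genes were called (1.43% higher and 1.10% lower). The same counts of 0 were found at 12 h against control, with 1.63% of all genes called (0.786% higher and 0.846% lower). Between 12 h and 3 h 0 of the 35 were called higher and 0 lower, with 4.07% of all genes called (1.99% higher and 2.08% lower). An unadjusted p was under 0.05 for 1, 3 and 10 of the 35 genes in these comparisons, where the shares of all genes were 15.0%, 15.8% and 17.8%.

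The direction was uneven between the hours. The median log2 change of the 35 genes at 3 h against control was −0.13, with 14 positive and 21 negative, beside a median of −0.02 over all genes. The median at 12 h against control was 0.37 with 34 of 35 positive, beside −0.01 over all genes, and at 12 h against 3 h it was 0.46 with 30 of 35 positive, beside 0.01. Without 12 h replicate 1 these medians were 0.05 (20 of 35 positive) at 12 h against control and 0.02 (18 of 35 positive) at 12 h against 3 h. In that fit 0 of 35 genes were called in any comparison. Over all 18193 genes the comparisons, in the order above, had 294, 137 and 277 calls higher and 226, 123 and 272 lower. An unadjusted limma p was under 0.05 for 1, 3 and 10 of the 35, beside 15.6%, 14.7% and 16.1% of all genes. At 12 h against control these were 1 higher and 2 lower, where all arrays gave 3 and 0. At 12 h against 3 h they were 6 and 4, where all arrays gave 8 and 2. Without control replicate 1 the median at 12 h against control was 0.17. The comparisons with control share their control arrays.

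Groups whose arrays did not overlap were few. At 3 h against control this held for 1 gene, Rsad2, with all 3 h arrays above the controls (6.77% of all genes were so placed). Against control at 12 h it held for Ddx58, above (6.05%). Between 12 h and 3 h it held for 5 genes, Ddx58, Ifih1, Parp14, Oasl1 and Irgm1, all above (6.30%), and no gene had all arrays below in any comparison, where 8.56%, 6.99% and 5.26% of all genes did.

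**Figure D2:**
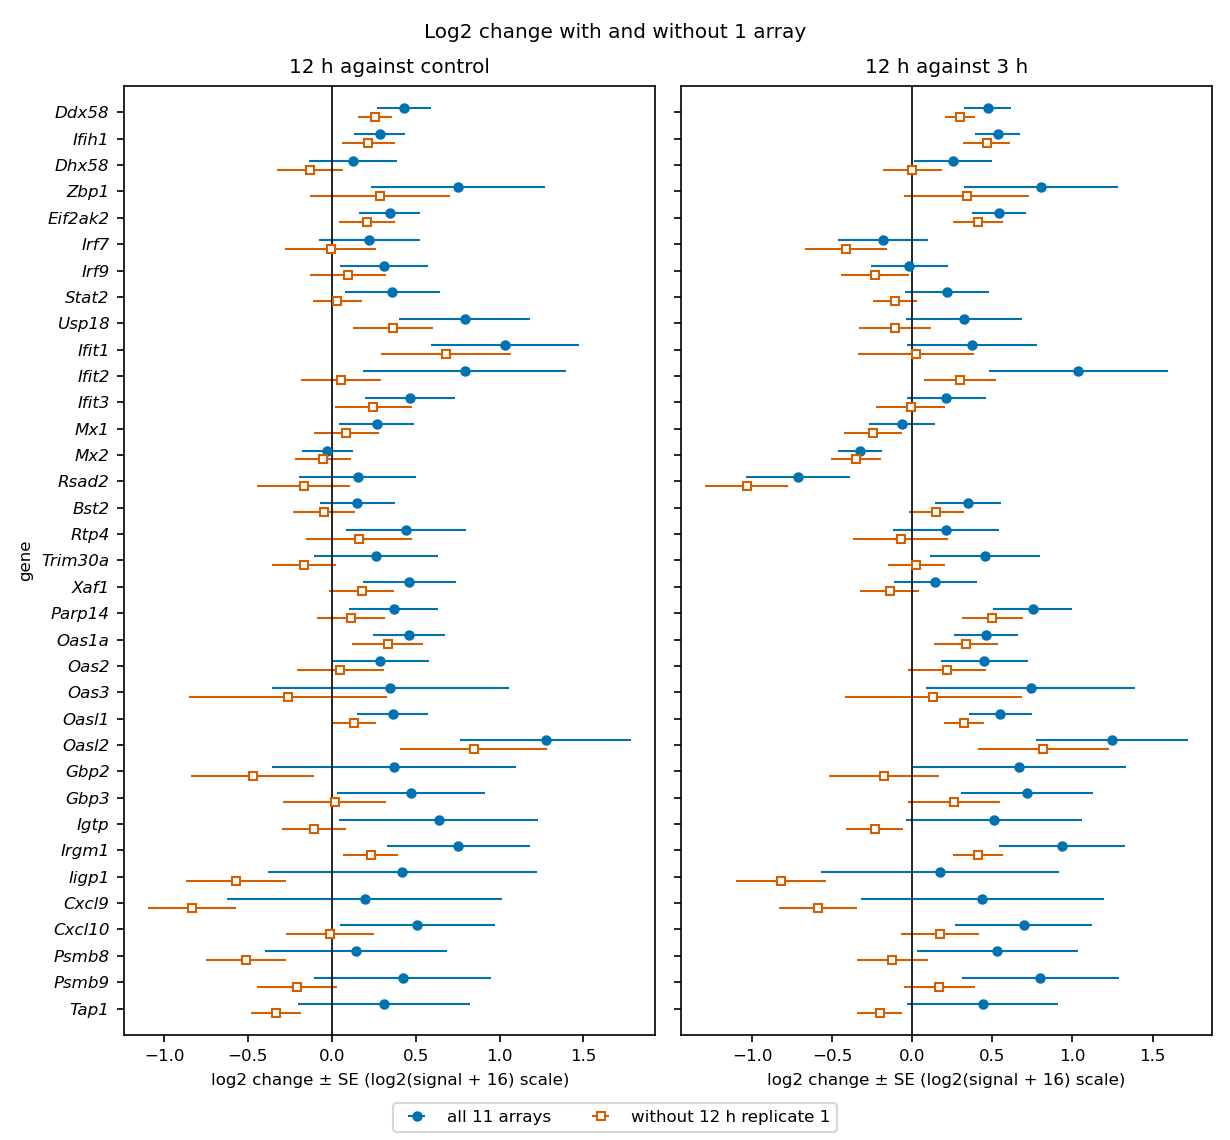
Log2 change with its standard error (horizontal axis, log2(signal + 16) scale) of each of the 35 genes at 12 h against control (left) and at 12 h against 3 h (right), from all 11 arrays (filled circles) and without 12 h replicate 1 (open squares). The median falls to 0.05 (left) and 0.02 (right) in the fit without that array, and Rsad2 is the lowest gene on the right in both fits.

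The sensors of nucleic acid were Ddx58 (RIG-I), Ifih1 (MDA5) and Dhx58 (LGP2), which bind viral RNA in the cytosol, Zbp1, which binds Z-form nucleic acid and can start necroptosis, and Eif2ak2 (PKR), a kinase that halts translation on double-stranded RNA. Ifih1 had signals of 452, 584 and 643 on the control arrays, 472, 566, 385 and 450 at 3 h, and 782, 663, 672 and 608 at 12 h. Every 12 h array was above every 3 h array, and the controls overlapped with both. The log2 change at 12 h against 3 h was 0.53 ± 0.14 (SE), the smallest adjusted p among the 35 genes (limma adjusted p = 0.0553, 12 h n = 4, 3 h n = 4), and without 12 h replicate 1 it was 0.47 (adjusted p = 0.131). Ifih1 passed the threshold in 6 of 21 alternatives, among them an offset of 64 (adjusted p = 0.0389) and the omission of control replicate 1 (0.0416) or 3 h replicate 2 (0.0437).

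Ddx58 had signals of 88.2, 79.6 and 85.3 on control arrays, 83.4, 80.3, 83.8 and 78.6 at 3 h, and 177, 94.4, 117 and 101 at 12 h. The 12 h arrays lay above all others, with the lowest of them close to the highest control. This held for 1 of its 3 probe sets, and the other two were dim and highest on control replicate 2 and 12 h replicate 3. The changes at 12 h were 0.43 ± 0.16 against control (limma adjusted p = 0.212) and 0.47 ± 0.15 against 3 h (0.107), and without 12 h replicate 1 they were 0.26 (0.267) and 0.30 (0.134). With the mean of all probe sets they were 0.17 (limma adjusted p = 0.67) and 0.29 (0.281). Eif2ak2 had signals of 66.3, 91.0 and 69.1 on control arrays, 67.8, 61.0, 54.7 and 69.7 at 3 h, and 136, 101, 106 and 65.4 at 12 h. The 12 h replicate 4 lay among the 3 h arrays, and the change at 12 h against 3 h was 0.54 ± 0.17 (limma adjusted p = 0.101), or 0.41 without 12 h replicate 1 (0.213). It passed the threshold in 1 of 21 alternatives, the fit without 12 h replicate 4 (0.71, adjusted p = 0.0149). Zbp1 varied most among the sensors, with signals of 52.1, 149 and 274 on control arrays, 105, 194, 126 and 99.8 at 3 h, and 642, 170, 193 and 137 at 12 h. Its controls alone spanned all 3 h arrays, and its change at 12 h against control was 0.75 ± 0.52 (limma adjusted p = 0.549). It was 0.29 without 12 h replicate 1 (limma adjusted p = 0.825), 0.19 without control replicate 1 (0.929) and 1.24 without control replicate 3 (0.286). Dhx58 was dim, at 14.9 to 38.2 on 10 arrays and 73.7 on 12 h replicate 1.

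The transcription factors were Irf7, a factor that amplifies type I interferon expression, and Irf9 and Stat2, parts of the complex that binds the response element. Irf7 had signals of 415, 459 and 630 on control arrays, 561, 900, 737 and 506 at 3 h, and 943, 342, 490 and 704 at 12 h. Its groups overlapped throughout, and 12 h held both its highest and its lowest array. Its change was 0.41 ± 0.30 at 3 h against control (limma adjusted p = 0.602) and 0.22 ± 0.30 at 12 h against control (0.799), a value of −0.01 without 12 h replicate 1. Stat2 had a signal of 146 on 12 h replicate 1 and 38.5 to 61.9 on the other arrays, and Irf9 had 288 there and 87.8 to 202 elsewhere.

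The ISG15 system attaches the ubiquitin-like protein ISG15 to other proteins, and Usp18 removes it and restrains the type I interferon receptor. Usp18 had signals of 30.5, 40.1 and 79.5 on control arrays, 73.0, 90.3, 66.6 and 58.2 at 3 h, and 249, 62.2, 80.9 and 54.2 at 12 h. Apart from 12 h replicate 1, the 12 h arrays lay within the range of the others, and the change at 12 h against control was 0.79 ± 0.39 (limma adjusted p = 0.359), or 0.36 without that array (0.538). The probe set shared by Isg15 and Gm9706 read 48.7, 77.8 and 160 in controls, 89.2, 124, 98.8 and 63.2 at 3 h, and 579, 113, 129 and 138 at 12 h. It was highest on the same array, and it cannot be assigned to Isg15 alone.

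Rsad2, the gene of viperin, an enzyme that makes a chain-terminating nucleotide, departed from the other effectors on its brightest probe set. It had signals of 81.4, 178 and 197 on control arrays, 245, 352, 282 and 231 at 3 h, and 329, 93.5, 140 and 150 at 12 h. All 3 h arrays were above all controls, and 12 h replicates 2 to 4 lay below all 3 h arrays while replicate 1 lay among them. The change was 0.87 ± 0.35 at 3 h against control (limma adjusted p = 0.257), and −0.71 ± 0.32 at 12 h against 3 h (0.278). Without 12 h replicate 1 the change at 12 h against 3 h was −1.03 ± 0.26 (limma adjusted p = 0.062), and at 3 h against control the adjusted p was 0.118. Without control replicate 1 the change at 3 h against control was 0.51 (limma adjusted p = 0.654). The other 2 probe sets of Rsad2 were highest on 12 h replicate 1, at 201 and 212, with at most 149 and 152 elsewhere. None of 21 alternatives passed the threshold in either comparison.

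The Ifit genes code for proteins that bind viral RNA and can block its translation. Ifit1 had signals of 68.9, 168 and 289 on control arrays, 251, 309, 299 and 165 at 3 h, and 699, 203, 312 and 255 at 12 h. Control replicate 1 was the lowest and 12 h replicate 1 the highest, with the rest mixed. The change was 0.66 ± 0.44 at 3 h against control (limma adjusted p = 0.553) and 1.03 ± 0.44 at 12 h against control (0.277), or 0.68 without 12 h replicate 1 (0.463) and 0.54 without control replicate 1 (0.666). At 3 h the change was 0.16 without control replicate 1 (limma adjusted p = 0.945) and 1.09 without control replicate 3 (0.268). Ifit2 had signals of 39.1, 70.5 and 103 on control arrays, 40.8, 64.4, 60.4 and 52.0 at 3 h, and 648, 59.4, 73.4 and 77.7 at 12 h. It was 8.84 times as high on 12 h replicate 1 as the median of the other 12 h arrays, and those arrays lay within the control range. Its change at 12 h against control was 0.79 ± 0.60 (limma adjusted p = 0.6), or 0.05 without that array and 0.50 without control replicate 1. Ifit3 had 224 on 12 h replicate 1 and 63.1 to 145 elsewhere.

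Mx1 and Mx2 code for dynamin-like GTPases that trap viral components, and both genes were dim on these arrays. C57BL/6 mice are known to carry a defective Mx1 allele. Mx1 had signals of 10, 22.5 and 20.3 on control arrays, 26.6, 17.8, 29.2 and 30.2 at 3 h, and 42.0, 12.3, 19.6 and 27.2 at 12 h. Mx2 had signals of 2.8, 4.4 and 1.4 on control arrays, 15.7, 3.2, 5.4 and 6.1 at 3 h, and 3.5, 2.7, 2.8 and 1.0 at 12 h. All Mx2 values were below the offset of 16, so its change of 0.30 ± 0.15 at 3 h against control (limma adjusted p = 0.389) is compressed by the scale. Parp14, an ADP-ribosyltransferase, had signals of 109, 202 and 198 on control arrays, 112, 145, 131 and 104 at 3 h, and 377, 191, 189 and 159 at 12 h. Its 12 h arrays were all above its 3 h arrays, and the controls overlapped with both. Its change at 12 h against 3 h was 0.75 ± 0.25 (limma adjusted p = 0.12), or 0.50 without 12 h replicate 1 (0.214) and 0.24 with the mean of all probe sets (0.707). The remaining effectors were Bst2 (tetherin, which holds budding virus at the cell surface), Rtp4, Trim30a and Xaf1. They were highest on 12 h replicate 1, at 135, 896, 498 and 299, against highest values elsewhere of 89.5, 607, 202 and 186.

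The 2-5A synthetase family makes oligoadenylates that activate the endonuclease RNase L, except for Oasl1, whose protein lacks this activity. Oasl2 had signals of 91.8, 252 and 421 on control arrays, 176, 403, 198 and 169 at 3 h, and 1361, 395, 386 and 427 at 12 h. The 12 h arrays other than replicate 1 were narrow, and the highest control and the highest 3 h array lay among them. The change at 12 h against control was 1.27 ± 0.51 (limma adjusted p = 0.247), the largest of the 35 in that comparison, and 0.84 without 12 h replicate 1 (0.408) or 0.72 without control replicate 1 (0.616). Against 3 h it was 1.25 ± 0.47 (limma adjusted p = 0.184), and 0.82 without that array (0.364). Oasl1 had signals of 154, 161 and 198 on control arrays, 144, 168, 146 and 134 at 3 h, and 368, 170, 180 and 217 at 12 h. Its 12 h and 3 h arrays did not overlap, though 12 h replicate 2 and 3 h replicate 2 nearly met, and the change was 0.55 ± 0.20 (limma adjusted p = 0.152), or 0.32 without 12 h replicate 1 (0.213).

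Oas1a, the brightest of the family, had signals of 568, 667 and 1025 on control arrays, 680, 968, 668 and 643 at 3 h, and 1318, 866, 878 and 1034 at 12 h. The 3 h replicate 2 lay apart from the other 3 h arrays and among the 12 h arrays. The change at 12 h against control was 0.46 ± 0.21 (limma adjusted p = 0.326), or 0.33 without 12 h replicate 1 (0.524), 0.28 without control replicate 1 (0.687) and 0.70 without control replicate 3 (0.124). Oas3 had the widest spread of the family, with signals of 6.0, 61.8 and 76.0 on control arrays, 37.8, 76.0, 9.3 and 7.0 at 3 h, and 228, 31.6, 43.2 and 16.6 at 12 h. Its groups overlapped fully apart from 12 h replicate 1, and its change at 12 h against control was 0.35 ± 0.70 (limma adjusted p = 0.878), turning to −0.26 without that array and −0.30 without control replicate 1. Oas2 read 82.9 on 12 h replicate 1 and 21.0 to 66.4 elsewhere.

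**Figure D3:**
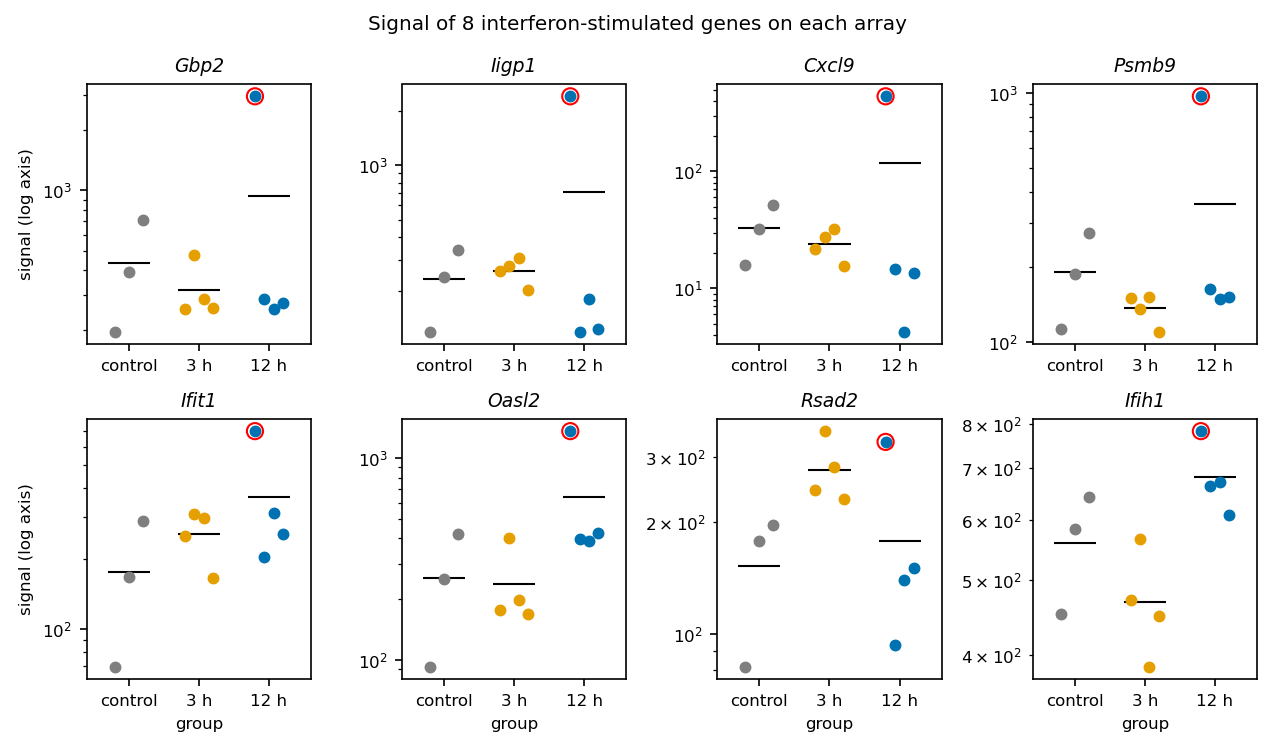
Signal (vertical axis, log scale, arbitrary units) of 8 interferon-stimulated genes on each array by group (horizontal axis: control n = 3, 3 h n = 4, 12 h n = 4), with points for arrays, horizontal bars for group means and a red ring around 12 h replicate 1. The ringed point is the highest of the 11 in every panel but that of Rsad2, whose brightest probe set, plotted here, has its highest value of 352 at 3 h.

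The interferon-inducible GTPases Gbp2, Gbp3, Igtp, Irgm1 and Iigp1 act against bacteria and parasites inside vacuoles and are known targets of interferon gamma in mouse cells. Iigp1 had signals of 119, 241 and 339 on control arrays, 258, 276, 305 and 204 at 3 h, and 2401, 119, 182 and 125 at 12 h. The 12 h group thus held the highest array of all and 3 arrays that lay below every 3 h array. The change at 12 h against control was 0.42 ± 0.80 (limma adjusted p = 0.871) and turned to −0.57 ± 0.30 without 12 h replicate 1 (0.414). Against 3 h the change was 0.17 ± 0.74 (limma adjusted p = 0.949), and −0.82 ± 0.28 without that array (0.162). Gbp2 had signals of 195, 393 and 715 on control arrays, 255, 477, 285 and 259 at 3 h, and 2956, 287, 254 and 272 at 12 h. The value on 12 h replicate 1 was 10.9 times the median of the other 12 h arrays, and those 3 arrays fell within the range of the controls. Irgm1 had signals of 145, 176 and 250 on control arrays, 156, 177, 172 and 146 at 3 h, and 996, 237, 220 and 207 at 12 h. It was the GTPase gene whose 12 h and 3 h arrays did not overlap, with a change of 0.93 ± 0.39 (limma adjusted p = 0.239), or 0.41 ± 0.15 without 12 h replicate 1 (0.206). Igtp was 1203 on 12 h replicate 1 and 121 to 202 elsewhere, and Gbp3 was 298 there and 41.5 to 110 elsewhere.

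The chemokines Cxcl9 and Cxcl10 attract T cells and NK cells through the receptor Cxcr3. Cxcl9 had signals of 15.8, 32.2 and 51.3 on control arrays, 21.7, 27.3, 32 and 15.6 at 3 h, and 438, 14.6, 4.2 and 13.6 at 12 h. The 3 other arrays at 12 h lay below all controls and all 3 h arrays, at or under the offset of 16. The change at 12 h against control was 0.20 ± 0.82 (limma adjusted p = 0.95), and −0.83 ± 0.26 without 12 h replicate 1 (0.158). Cxcl10 read 167 on 12 h replicate 1 and 8.6 to 39.9 on the other arrays.

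The antigen processing genes were Psmb8 and Psmb9, subunits of the immunoproteasome that cuts proteins into peptides, and Tap1, part of the pump that carries those peptides to MHC class I. Psmb9 had signals of 113, 188 and 275 on control arrays, 151, 136, 151 and 110 at 3 h, and 967, 164, 149 and 152 at 12 h. The 12 h arrays other than replicate 1 differed by little and lay within the controls. The change at 12 h against control was 0.42 ± 0.53 (limma adjusted p = 0.777), or −0.21 ± 0.24 without 12 h replicate 1 (0.763). Tap1 read 570 on 12 h replicate 1, against 83.4, 81.3 and 81.6 on the other 12 h arrays and 143 on the highest of the rest. Psmb8 read 1168 on 12 h replicate 1, against 179, 160 and 191 on the other 12 h arrays and 366 on the highest of the rest.

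The size of the difference between 12 h replicate 1 and the other 12 h arrays followed the roles unevenly. On the log2 scale, its excess over their median was 3.06 in the middle GTPase gene, 2.93 for the chemokines and 2.58 for antigen processing. It was 1.21 for the 2-5A synthetase family, 1.09 for the Ifit, Mx and other effectors, 0.92 for the transcription factors and 0.72 for the sensors, and 1.76 for Usp18. The range over all 35 genes was 0.06 (Mx2) to 4.10 (Iigp1) with a median of 1.26, where the median of all genes was −0.01. Among all 18193 genes, 50 (0.275%) were more than 2-fold higher on this array than on every other array, and 18 of the 50 were among the 35 interferon-stimulated genes. All 5 GTPase, both chemokine and all 3 antigen processing genes were in that number. On the other arrays 0 to 5 genes met this measure and none of the 35 did. The offset in the measure holds back dim genes, such as Mx2 at 15.7 on 3 h replicate 1 and at most 6.1 elsewhere. The pattern on 12 h replicate 1 was chosen after values were seen and was given no test.

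Other probe sets of the same genes were compared, since they are separate readings of a transcript. There were 21, for 15 genes. All 9 with a mean signal of 32 or more were highest on 12 h replicate 1, as were 6 of the 12 dimmer ones.

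Summed signals of marker lists also differed between the groups, and their part in the changes of the genes named in the text was not tested. For 6 posterior Hox genes, normally active toward the anal end of the gut, the sum was 1457 to 1986 on control arrays, 638 to 1075 at 3 h and 1472 to 1672 at 12 h, with Hoxd12 below the offset on every array. The 3 h arrays thus lay below all others in this sum, as they did for Mavs and Il10rb, while they lay above all others for Ptpn2 and Tlr7. Singly, Hoxa13, Hoxb13, Hoxd10 and Hoxd13 were so placed. Hoxd11 was not, with 39.0 on 3 h replicate 1 and 21.7 to 39.8 on control arrays. The sum of 5 fat markers was 698 to 948 on control arrays, 1502 to 2259 at 3 h and 1028 to 2121 at 12 h, with Lep below the offset throughout. All treated arrays were above all controls in this sum, as for Ptpn1, and opposite to Il18. Of the single fat markers only Fabp4, the brightest, was so placed. Adipoq, Cidec and Retn were within the range of the controls on 12 h replicate 1, at 203, 35.2 and 87.8. The sums of 4 neutrophil markers (19.0 to 42 on control arrays, 96.2 to 213 at 3 h and 29.1 to 234 at 12 h) and of 9 T and NK cell markers (119 to 176, 197 to 325 and 159 to 235 in the same order) had all 3 h arrays above all controls. Those of 9 macrophage and monocyte markers (1690 to 2352, 1478 to 1807 and 1520 to 1660) and of 6 B and plasma cell markers (3269 to 3948, 2722 to 4062 and 2348 to 2761) had all 12 h arrays below all controls. These sums rest on few markers. Of the neutrophil and the T and NK cell markers taken singly, only S100a8, S100a9 and Gzmb had all 3 h arrays above all controls. Gzmb read 0.9 to 13.2 on control arrays and 21.6 to 46.5 at 3 h. At 12 h only Csf1r, Adgre1 and C1qc of the macrophage and monocyte markers lay below all controls. Of the B and plasma cell markers only Jchain, the brightest, did so.

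Genes upstream of the 35 were taken from lists of the pathway. The list of interferons with Il12b and Il18 had 6 of 10 genes measured. Ifng (interferon gamma) read 5.7, 1.9 and 8.9 on control arrays, 0.5, 4.1, 9.0 and 0.6 at 3 h, and 14.7, 0.4, 2.8 and 9.8 at 12 h. Ifna4 and Ifna2 were at 9.2 or less on all arrays. These signals lie below the offset, where differences could not be read, although the Ifng value of 12 h replicate 1 was the highest of the 11. Il18, a cytokine made by gut epithelium that induces interferon gamma, was called lower. It had signals of 1883, 1522 and 1959 on control arrays, 1078, 1021, 1100 and 1104 at 3 h, and 690, 1154, 1018 and 810 at 12 h. All treated arrays were below all controls, and Il18 fell by 0.72 ± 0.16 at 3 h (limma adjusted p = 0.0374) and by 0.97 ± 0.16 at 12 h (0.0152), or by 0.84 without 12 h replicate 1 (0.0183). The call at 3 h was lost in 9 of 21 alternatives (adjusted p up to 0.147) and that at 12 h in 3 of 21 (up to 0.0782). On 12 h replicate 1, where the interferon targets were highest, Il18 was at its lowest.

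Of the receptors and JAK-STAT genes 10 were measured. None of the 10 was highest on 12 h replicate 1. Il10rb, a chain shared by the receptors of type III interferon and interleukin 10, had signals of 689, 591 and 677 on control arrays, 477, 586, 555 and 507 at 3 h, and 712, 781, 709 and 832 at 12 h. All its 12 h arrays were above its 3 h arrays, and it rose by 0.50 ± 0.10 at 12 h against 3 h (limma adjusted p = 0.0165, lost in 5 of 21 alternatives with adjusted p up to 0.269). The change was 0.53 without 12 h replicate 1 (limma adjusted p = 0.027) and 0.18 with the mean of all probe sets (0.269). Ifngr1, Ifngr2, Ifnlr1, Jak2 and Stat3 did not pass the test in any comparison.

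Among 7 negative regulators, the phosphatases Ptpn2 and Ptpn1, which remove phosphate from JAK and STAT proteins, were called. Ptpn2 had signals of 535, 494 and 576 on control arrays, 854, 849, 832 and 770 at 3 h, and 561, 504, 541 and 456 at 12 h. Its 3 h arrays stood above all others and its 12 h arrays overlapped with the controls. It rose by 0.61 ± 0.10 at 3 h against control (limma adjusted p = 0.00882) and fell by 0.67 ± 0.09 at 12 h against 3 h (0.00235). These calls were lost in 2 and 1 of 21 alternatives, among them the mean of all probe sets, with changes of 0.30 and −0.30 (limma adjusted p = 0.173 and 0.115). The change at 12 h against 3 h was −0.71 without 12 h replicate 1 (limma adjusted p = 0.00397). Ptpn1 had signals of 272, 251 and 304 on control arrays, 404, 455, 447 and 416 at 3 h, and 417, 378, 423 and 342 at 12 h. It rose by 0.62 ± 0.11 at 3 h (limma adjusted p = 0.0114, lost in 2 of 21 alternatives) and by 0.48 ± 0.11 at 12 h against control (0.0487, lost in 16 of 21), a change of 0.44 without 12 h replicate 1 (0.0915). All treated arrays of Ptpn1 were above all controls. Socs3, an inhibitor of JAK kinases, had signals of 32.5, 75.5 and 318 on control arrays, 474, 606, 641 and 465 at 3 h, and 307, 201, 260 and 45.9 at 12 h. All 3 h arrays were above all controls, and its change of 2.29 ± 0.62 at 3 h did not pass the test (limma adjusted p = 0.0794). Neither did Ptpn6 nor Trim24 in any comparison.

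Of 12 sensing adaptors and kinases, Mavs and Tlr7 were called. Mavs, the mitochondrial adaptor through which Ddx58 and Ifih1 signal, had signals of 183, 139 and 158 on control arrays, 115, 110, 114 and 117 at 3 h, and 244, 221, 217 and 209 at 12 h. The groups did not overlap in any pair, and replicates within a group differed little. Mavs rose by 0.88 ± 0.10 at 12 h against 3 h (limma adjusted p = 0.000383), a call kept in all 21 alternatives, with changes of 0.69 to 1.11 and of 0.83 without 12 h replicate 1 (0.00164). Its changes against control, −0.43 ± 0.10 at 3 h (limma adjusted p = 0.0506) and 0.45 ± 0.10 at 12 h (0.0531), narrowly missed the threshold. In the fit without 12 h replicate 1 the change at 3 h was the same, with a limma adjusted p of 0.049, and that at 12 h was 0.41 (0.1). The array left out was singled out after values were seen, so crossing the threshold at 3 h in that fit does not test a fall. Tlr7, an endosomal sensor of single-stranded RNA, was dim, with 3.5, 5.4 and 9.0 on control arrays, 13.3, 15.5, 21.3 and 13.6 at 3 h, and 9.1, 5.6, 5.4 and 8.0 at 12 h. It rose by 0.54 ± 0.12 at 3 h (limma adjusted p = 0.0404, lost in 13 of 20 alternatives) and fell by 0.47 ± 0.11 at 12 h against 3 h (0.04, lost in 14 of 20), and all but 1 of its signals were below the offset. Without 12 h replicate 1 the change at 12 h against 3 h was −0.51 (limma adjusted p = 0.0501), and with the mean of all probe sets the changes were 0.11 at 3 h and −0.11 (0.776 and 0.707). Ikbke, Myd88, Tbk1, Tlr9 and Trim25 were not called.

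In the IRF family 0 of 6 measured genes were called. Irf1, a factor induced by interferon gamma that drives antigen processing genes, had signals of 751, 969 and 1071 on control arrays, 554, 662, 689 and 529 at 3 h, and 1382, 645, 681 and 624 at 12 h. All 3 h arrays and all 12 h arrays but replicate 1 lay below the controls. Its change at 3 h against control was −0.59 ± 0.24 (limma adjusted p = 0.265). In the fit without 12 h replicate 1, the array where Irf1 was highest, the same change had a limma adjusted p of 0.0473. The change itself was equal in both fits, and the estimate of the spread differed. That array was singled out after values were seen, so this p-value does not test a fall. Irf2, Irf3, Irf4 and Irf8 were among the genes not called.

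A list of 46 further interferon-stimulated genes, of which 40 were measured, had 35 genes highest on 12 h replicate 1 and a median excess of 0.66 there. Ifitm1, which blocks virus entry, was the gene of this list called at 12 h. It had signals of 199, 176 and 212 on control arrays, 254, 366, 444 and 235 at 3 h, and 579, 449, 529 and 287 at 12 h. All 12 h arrays were above all controls, and it rose by 1.13 ± 0.24 at 12 h against control (limma adjusted p = 0.0428). The call was lost in 10 of 21 alternatives, the fit without 12 h replicate 1 among them (1.01, adjusted p = 0.0819). Ifi35, Ifitm3, Isg20, Parp9, Pml, Sp100 and Ube2l6 had the smallest p values of the rest of the list in at least 1 comparison and were not called. In all, 3 of 97 pathway genes were called higher and 1 lower at 3 h against control, where 1.43% and 1.10% of all genes were. The counts were 2 higher and 1 lower at 12 h against control (0.786% and 0.846% of all genes), and 2 higher and 2 lower at 12 h against 3 h (1.99% and 2.08%).

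MHC class I genes present cytosolic peptides to CD8 T cells, and 8 of 9 measured genes of this list were highest on 12 h replicate 1, with a median excess of 0.77. The heavy chains H2-K1 and H2-D1 had an excess of 0.04 and 0.11, and the transporter part Tap2 had 1.34. MHC class II genes present peptides from outside the cell to CD4 T cells, and 7 of 7 were highest on that array, with a median excess of 1.12. Cd74, the invariant chain, had signals of 1043, 1431 and 1580 on control arrays, 1236, 1228, 1178 and 923 at 3 h, and 2526, 784, 728 and 886 at 12 h. The 12 h arrays other than replicate 1 were the lowest of all, so that the 12 h group held both ends. No gene of these lists was called with all arrays, among them Erap1, Psmb10, Psme1, Ciita, Ctss and H2-Eb1. Without 12 h replicate 1, the class II chains H2-Aa and H2-Ab1 fell by 0.65 (limma adjusted p = 0.0436) and by 0.81 (0.0291) at 12 h against control. Cd274, the gene of PD-L1, fell by 0.59 in that fit (limma adjusted p = 0.0293), with 119 on 12 h replicate 1 and 24.6, 24.7 and 20.1 on the other 12 h arrays, against 38.5, 44.3 and 45.8 on control arrays. With all arrays the changes of these 3 genes were −0.37, −0.50 and −0.14 (limma adjusted p = 0.522, 0.419 and 0.909). The array left out was the highest for each of the 3 and was singled out after values were seen. The p-values of that fit therefore describe these arrays and do not test a fall. In the same fit 137 of all 18193 genes were called higher and 123 lower at 12 h against control.

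**Figure D4:**
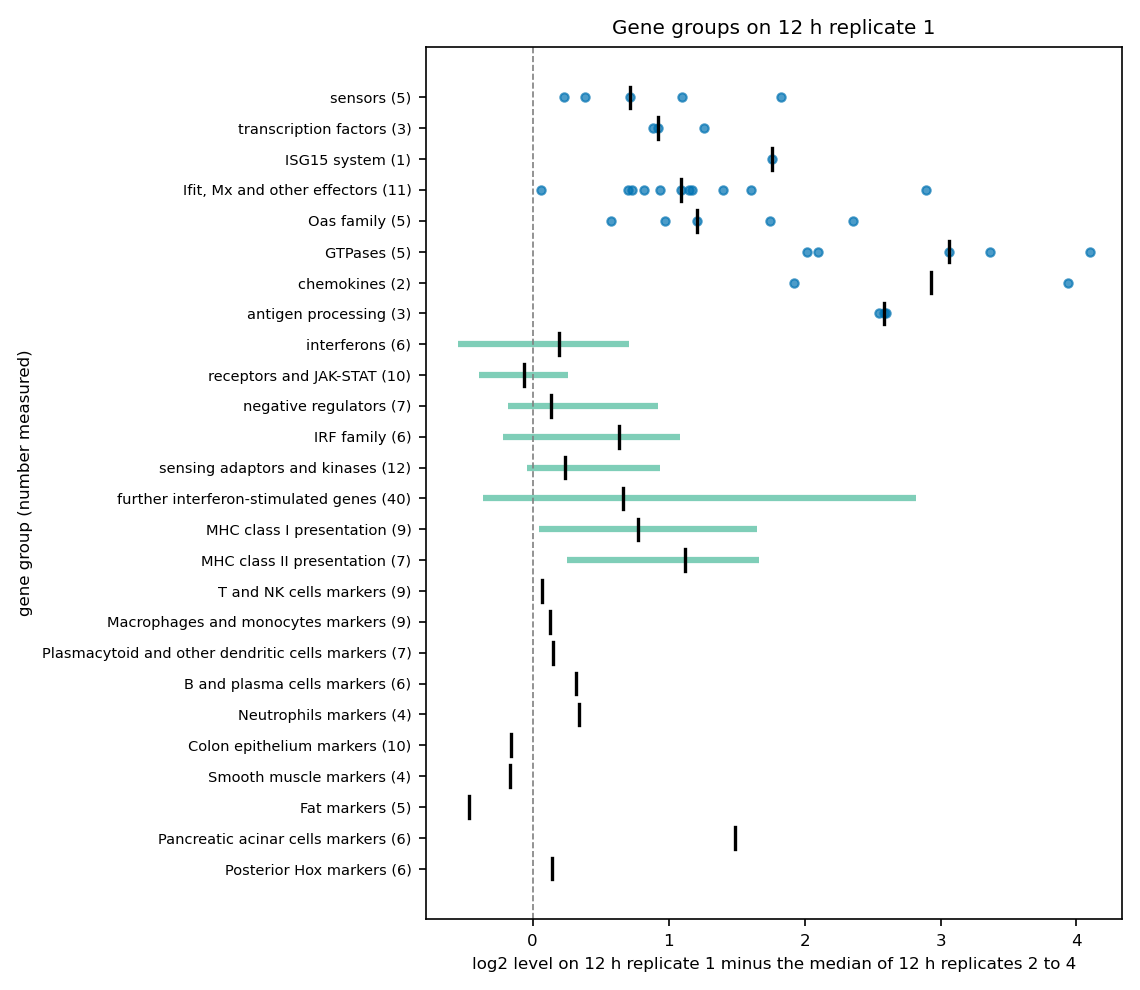
Log2 level on 12 h replicate 1 minus the median of 12 h replicates 2 to 4 (horizontal axis) for each group of genes (vertical axis, number measured in brackets), with points for interferon-stimulated genes, green bars for the range of pathway lists and black marks for medians, also of cell type marker lists. The GTPases, chemokines and antigen processing genes have medians of 2.58 to 3.06, while receptors and JAK-STAT genes lie at −0.07.

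Markers of cell types were read on the same arrays. On 12 h replicate 1 the summed signal of 9 T and NK cell markers was 235 (119 to 325 on the other 10 arrays), with Cd3e and Cd2 below the offset. That of 9 macrophage and monocyte markers was 1660 (1478 to 2352), that of 7 dendritic cell markers 98.1 (64.7 to 134) with Siglech, Ccr9, Flt3, Zbtb46 and Xcr1 below the offset, and that of 6 B and plasma cell markers 2761 (2348 to 4062). These sums lay inside the range of the other arrays, but single markers did not all do so. Jchain made up 2380 of the B and plasma cell sum, and Cd79a was highest of the 11 on this array, at 74.6 with at most 57.6 elsewhere. Gzmb (59.8, at most 46.5 elsewhere), Cd3d (28.8, at most 28) and Cx3cr1 (65.3, at most 57.3) were also highest there. Whether the cells that carry these markers bear on the level of the interferon-stimulated genes was not tested. That of 4 neutrophil markers was the highest of the 11, at 234 (19.0 to 213), with S100a8 at 155 and Csf3r and Cxcr2 below the offset. That of 4 smooth muscle markers was the lowest, at 8380 (8867 to 17770). It was nearly as low on 12 h replicates 2 and 3, at 8867 and 9247, with 12200 to 14820 on control arrays. Singly, Acta2 was lowest on 12 h replicate 2 and Des on 12 h replicate 3.

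Pancreatic acinar markers, 6 of 8 measured, also differed between arrays. Their summed signal was 59400, 2468 and 3051 on control arrays, 2213, 2293, 15990 and 2317 at 3 h, and 45730, 2502, 36850 and 17180 at 12 h. The array highest in interferon-stimulated genes and the control array lowest in them were both high in pancreatic transcripts, and 12 h replicate 3, also high, had a mean log2 level of the 35 genes of 7.14. The insulin gene Ins2 read 522 on 12 h replicate 1 and 50.8 or less elsewhere. Whether these transcripts bear on the level of the interferon-stimulated genes was not tested.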

How the data were processed

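RNA of 11 mouse colon samples was hybridised to Affymetrix mouse 430 2.0 arrays, and the authors deposited 1 linear intensity per probe set and array. The software behind them is not stated. The deposited intensities had a mean of 100 on each array after trimming 2% at each end. Of 45101 probe sets, 64 were controls, 34945 had 1 gene symbol, 932 had several and 9160 had none. Symbols were updated by Entrez number to RefSeq (GRCm38.p6), where 99.4% were found, and each of 18193 genes was represented by its single-symbol probe set with the highest mean log2 level. An offset of 16 was added before log2. All 11 arrays were fitted with limma 3.58.1 in R 4.3.3 (2-sided, Benjamini-Hochberg over all genes, calls at an adjusted p under 0.05, 8 residual and 3.99 prior degrees of freedom). The procedure was tested on simulated data. The number of arrays limits the precision.

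The 37 genes and all other lists were chosen with earlier results of these data known. Values on every array were given for the 6 genes with the smallest p in each comparison and, in each role, the gene with the largest SD, and for the pathway genes that were called. Up to 4 further genes of each pathway list, those with the smallest p in a comparison, were named. Gbp2, Irgm1, Igtp, Gbp3, Psmb8, Tap1, Cxcl10, Cd274, Cd74, Ins2 and other genes given by ranges were named after their values were seen. Alternatives changed the scaling, the offset, a level filter, the choice of probe set, weights on arrays, the prior on the variance, which groups entered the fit, a block for the replicate number, and each array in turn. The labels do not say whether the replicate numbers pair the samples. Python 3.11.15 and matplotlib 3.10.9 made the plots.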

Additional observations from a re-analysis of the deposited data

Results flagged for a closer look

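Among 4 arrays of a group, a value was marked where its gap to the nearest array divided by the group's range (Dixon's ratio) exceeded the critical value for 4 samples, which chance gives for about 1 in 20 groups. At 12 h this held for 10 of the 35 interferon-stimulated genes, against 6.66% of all genes, and 12 h replicate 1 was the array set apart in each. The ratio was 0.900 for Ifit2, 0.922 for Oasl2, 0.951 for Gbp2, 0.863 for Igtp, 0.917 for Irgm1, 0.866 for Iigp1, 0.867 for Cxcl9, 0.913 for Psmb8, 0.952 for Psmb9 and 0.988 for Tap1. For the mean log2 level of the 35 genes it was 0.890. At 3 h it held for 2 of the 35 genes, against 6.83% of all genes. These were Oas1a (0.863), high on 3 h replicate 2, and Cxcl10 (0.831), low on 3 h replicate 3.

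The effects at 12 h and at 3 h, both taken against the same controls, differed by test in 4 of 97 pathway genes, where 4.07% of all genes did. These are the calls at 12 h against 3 h given above and not a further result. The difference was 0.50 for Il10rb, −0.67 for Ptpn2, −0.47 for Tlr7 and 0.88 for Mavs on the log2 scale, with 12 h minus 3 h. The call was lost in 5 of 21 alternatives for Il10rb, 1 of 21 for Ptpn2, 14 of 20 for Tlr7 and 0 of 21 for Mavs.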

How the results depend on the processing

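The number of interferon-stimulated genes called was 0 in each comparison under the alternatives run, except at 12 h against 3 h. There 1 was called under the offset of 64, the level filter, array weights and the trend and robust prior (Ifih1 in each), and 0 or 1 when 1 array was left out. The median change of the 35 genes at 12 h against control was 0.05 to 0.53 when 1 array was left out, and 0.30 to 0.48 otherwise. At 12 h against 3 h it was 0.02 to 0.58 and 0.36 to 0.48, and at 3 h against control −0.25 to 0.05 and −0.14 to −0.003. Cxcl9 at 12 h against control turned to −0.20 with an offset of 1, and Iigp1 at 12 h against 3 h to −0.0231 with array weights. With 1 array left out, the change at 12 h against control was −0.0059 to 0.47 for Irf7, −0.30 to 0.73 for Oas3, −0.57 to 0.82 for Iigp1, −0.83 to 0.67 for Cxcl9 and −0.21 to 0.70 for Psmb9. It was −0.47 to 0.81 for Gbp2, −0.11 to 0.94 for Igtp, −0.51 to 0.41 for Psmb8, −0.33 to 0.53 for Tap1 and −0.010 to 0.81 for Cxcl10. At 12 h against 3 h it was −0.82 to 0.57 for Iigp1 and −0.59 to 0.91 for Cxcl9. The lowest values came from leaving out 12 h replicate 1, or control replicate 1 for Oas3. The cause was not tested. Of pathway genes, 4 were called at 3 h against control, 2 with an offset of 1, 2 with the replicate block and 0 to 7 without 1 array. At 12 h against control 3 were called, 0 with an offset of 1, 5 each with an offset of 64, the level filter and the trend and robust prior, 0 with the arrays of both groups only and 0 to 4 without 1 array. At 12 h against 3 h 4 were called, 1 with the mean of all probe sets, 2 with the replicate block and 2 to 6 without 1 array. Deviations of same-numbered arrays had correlations of −0.21 to 0.31. Arrays of unlike number were not compared and the labels name no pairing, so whether the samples were paired was not tested. The 12 h replicate 1 was highest for 33 to 34 of 35 genes under other scalings, offsets and probe sets, chosen after seeing the data, and for 30 of 31 with the level filter. Dim genes such as Mx2, Cxcl9 and the interferons are limited by signal over background.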

Other observations

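Genes more than 2-fold higher on 12 h replicate 1 than on every other array included several outside the lists, named after their values were seen. Ido1, which breaks down tryptophan and is a known target of interferon gamma, read 1096 on that array and 141 or less on the others. Il18bp, a secreted inhibitor of interleukin 18, read 221 there and 35.5 or less elsewhere. The list also held Ubd (187 against at most 44.7), a ubiquitin-like gene, and Wars (1606 against at most 523), a tRNA synthetase. Reg3a, an antimicrobial lectin gene, read 3078 there and at most 461 elsewhere, and Clu read 1231 there and at most 429 elsewhere. Reg3d (1521 against at most 393), Iapp (174 against at most 70.3) and Ins2 were in the same set. The array was high in pancreatic acinar markers, with a sum of 45730, and which tissue gave the signals of these genes was not tested.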
